A study of Mus musculus with 2 samples.

Results

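The 10 genes described here, Zbtb16, Sall4, Foxo1, Pou5f1, Neurog3, Sox3, Nanos3, Egr4, Lin28a and Taf4b, are regulators of mouse spermatogonia, the mitotic germ cells of the testis. They were named by symbol among the 32285 genes of the count tables, and each matched 1 gene. Their UMIs (unique molecular identifiers, each counting 1 captured transcript) were read per cell and summed per library in germ cells. A cell of 10000 UMIs or more counted as a germ cell when Ddx4 and Dazl, which both encode germ cell RNA regulators, together took 3 or more of every 10000 of its UMIs. Germ cells were then placed by their Gfra1 and Ret UMIs against their Kit and Stra8 UMIs.

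Spermatogonial stem cells renew themselves in response to GDNF, a growth factor made by Sertoli cells that acts on germ cells through the receptor subunits encoded by Gfra1 and Ret. Their daughters become progenitor spermatogonia, which lose that receptor, and retinoic acid then drives progenitors into differentiation with the onset of Kit and Stra8. The genes in question act along this path. Zbtb16 (PLZF), Sall4 and Foxo1 encode transcription factors of the undifferentiated state, and Pou5f1 (OCT4) one of pluripotent and early germ cells. Neurog3 and Sox3 encode transcription factors used as progenitor markers. Egr4 is an early growth response gene, and Taf4b encodes a germ cell-enriched subunit of the general transcription factor TFIID. Nanos3 and Lin28a encode RNA-binding proteins rather than transcription factors, of which LIN28A blocks maturation of let-7 microRNAs.

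The study compared testes of a control and a Brca1 vKO mouse at postnatal day (PD) 7 by 10x Genomics single-cell RNA sequencing, to ask how loss of the DNA repair gene Brca1 affects the spermatogonia formed after birth. The Brca1 vKO mouse carried 1 floxed and 1 deleted Brca1 allele with Vasa-Cre, a transgene that acts in germ cells from late gestation, so its somatic cells keep a single working allele. The control was a littermate whose alleles the labels do not spell out. Each genotype was 1 library, so no test between genotypes was possible, all intervals given are 95% intervals of counting error alone, and differences between the mice cannot be told apart from differences between the genotypes.

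The control library held 716 germ cells among 4035 retained cells of that depth (17.7%), and the Brca1 vKO library 228 of 6555 (3.48%). Their summed UMIs were 33857132 and 9052629, with medians of 44839.5 and 36959.5 UMIs per cell. The germ cell threshold was sharp, since 11 control and 2 Brca1 vKO cells had 3 to 4 Ddx4 and Dazl UMIs per 10000, and 9 and 2 cells lay just under it at 2 to 3. In the control library 310 cells (43.3%, exact interval 39.6 to 47.0) formed the Gfra1/Ret group, with at least 1 UMI of that pair per 10000 and more of it than of the other pair. The Kit/Stra8 group, defined the other way round, held 249 cells (34.8%), and 156 cells (21.8%) were low in both pairs. In the Brca1 vKO library the same groups held 196 (86.0%, 80.8 to 90.2), 15 (6.58%) and 15 (6.58%) cells. The remaining 1 control and 2 Brca1 vKO germ cells fell in no group, and 77 control and 50 Brca1 vKO germ cells reached the cut for both pairs. Gfra1 itself stood at 346 counts per 1000000 UMIs (CPM) in the control and 353 CPM in the Brca1 vKO Gfra1/Ret group, whereas Kit stood at 8.55 and 32.7 CPM there. Ret stood at 135 and 125 CPM in that group. Stra8 stood at 46.1 and 27.3 CPM, lower in the Brca1 vKO library where Kit was higher. Brca1 transcripts, whose counted end may lie outside the deleted exons and so does not check the genotype, were at 71.3 CPM in control and 44.2 CPM in Brca1 vKO germ cells.

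Some germ cells carried signs of mixing. The doublet caller Scrublet marked 64 control (8.94%) and 27 Brca1 vKO (11.8%) germ cells, against 2.95% and 3.03% of all retained cells, and 86 and 14 germ cells fell outside the germ-like cluster. The libraries shared 21 barcodes, 2 of them on control germ cells. Summed over germ cells, a list of 6 neutrophil markers gave 3.22 CPM for the control and 219.9 CPM for the Brca1 vKO library, 4 haemoglobin genes gave 604 and 40.3 CPM, and 12 Sertoli cell markers gave 709.9 and 644 CPM. All 6 neutrophil, 4 haemoglobin and 12 Sertoli markers had UMIs in germ cells of both libraries. In the median germ cell the Sertoli list took 1.22 and 2.503 UMIs per 10000. The part of these in the values below was not tested. Leaving out the Scrublet-marked cells, or keeping only the germ-like cluster, moved none of the 10 genotype ratios over all germ cells beyond its interval. Neither setting removes other cells' transcripts from the germ cells that are kept, so neither measures that part.

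Promoter sequence was found in the RefSeq table of build GRCm38.p6 for 6 of the 10 genes, namely Foxo1, Pou5f1, Neurog3, Nanos3, Egr4 and Lin28a. The 4 shown, Neurog3, Egr4, Nanos3 and Lin28a, had the largest relative difference between their first and their highest point on the path from Gfra1/Ret to Kit/Stra8 cells in the control library, as described later. Each line gives the 250 bases before the RefSeq start, 5′ to 3′ on the gene's strand. Capitals mark matches on either strand. The STAT motif searched was TTCNNNGAA, and the GC box, bound by SP family factors, was read as the letters GGGCGG. The promoter element known as the CCAAT box was searched by its name, and the core of the CRE, the cyclic AMP response element, as TGACG.
Neurog3: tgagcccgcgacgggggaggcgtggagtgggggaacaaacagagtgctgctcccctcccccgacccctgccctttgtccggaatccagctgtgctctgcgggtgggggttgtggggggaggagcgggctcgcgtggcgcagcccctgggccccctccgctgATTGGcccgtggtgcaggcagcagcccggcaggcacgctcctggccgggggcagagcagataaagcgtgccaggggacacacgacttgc
Egr4: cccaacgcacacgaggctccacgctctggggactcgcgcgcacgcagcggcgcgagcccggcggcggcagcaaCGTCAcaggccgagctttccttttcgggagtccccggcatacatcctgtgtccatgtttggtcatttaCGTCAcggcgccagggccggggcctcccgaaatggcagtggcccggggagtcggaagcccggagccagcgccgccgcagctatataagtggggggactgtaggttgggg
Nanos3: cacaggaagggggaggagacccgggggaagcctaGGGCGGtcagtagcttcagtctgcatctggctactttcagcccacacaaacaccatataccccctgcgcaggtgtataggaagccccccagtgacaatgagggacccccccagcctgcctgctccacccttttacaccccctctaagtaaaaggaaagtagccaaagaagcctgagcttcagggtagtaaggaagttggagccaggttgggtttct
Lin28a: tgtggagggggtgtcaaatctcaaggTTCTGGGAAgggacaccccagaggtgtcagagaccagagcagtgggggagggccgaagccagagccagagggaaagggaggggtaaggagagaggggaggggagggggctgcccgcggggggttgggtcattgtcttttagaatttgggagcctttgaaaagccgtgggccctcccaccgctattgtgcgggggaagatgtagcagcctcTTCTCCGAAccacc

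The Neurog3 window (chr10:62132840-62133089, plus strand) ends at the base before the gene, which spans chr10:62133090-62134763, and holds 1 CCAAT box at position -89 from the start. The Egr4 window (chr6:85513590-85513839, minus strand) adjoins a gene at chr6:85511121-85513589 and holds 2 CRE cores, at -177 and -109, letters bound by CREB family factors. The Nanos3 window (chr8:84176553-84176802, minus strand) lies inside the longer gene span of the GENCODE annotation, chr8:84173731-84185217, and holds 1 GC box at -216. The Lin28a window (chr4:134018817-134019066, minus strand) overlaps the first bases of the GENCODE span chr4:134003330-134018841 and holds 2 STAT motifs, at -224 and -14. Over 32817 promoter windows of the same length, CCAAT was found in 33.8%, GGGCGG in 32.7%, TGACG in 17.7% and TTCNNNGAA in 7.01%. Also searched were a forkhead motif (TGTTTAC, 3.16% of windows), a SOX motif (AACAATG, 3.29%) and EGR motifs (GCGGGGGCG, 2.57%, and GCGTGGGCG, 0.536%), whose letters can overlap a GC box. None of those 4 was in the windows shown. The 4 windows shared no motif of the set.

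Along the path in the control library, the 10 genes had their highest points at different places when the path was cut into 10 bins, as described below. Zbtb16 and Sall4 were highest at the Gfra1/Ret end (bin 1), Neurog3, Egr4, Nanos3, Lin28a, Foxo1 and Pou5f1 at intermediate points, and Sox3 and Taf4b at the Kit/Stra8 end (bin 10). Some high points lay within counting error of other bins. Sall4 was at 113 CPM (101 to 125) in bin 1, 61.3 CPM in bin 8 and 99.3 CPM (89.5 to 109.9) in bin 10. Sox3 was at 67.1 CPM (57.9 to 77.2) in bin 6 and 76.9 CPM (68.3 to 86.3) in bin 10. The groups were defined by Gfra1, Ret, Kit and Stra8 alone, so the levels of the 10 genes were not used to form them.

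Zbtb16, a repressor needed for stem cell maintenance, was at 358 CPM in the control Gfra1/Ret group, 300.3 CPM in cells low in both pairs and 125 CPM in the Kit/Stra8 group. The Kit/Stra8 level was 0.349 times the Gfra1/Ret level (0.329 to 0.369). In single cells Zbtb16 ranged from 0 to 73 UMIs with a median of 15 in the Gfra1/Ret group, and from 0 to 61 with a median of 4 in the Kit/Stra8 group, so the cells of the groups overlapped widely. Sall4, a zinc finger factor that binds PLZF, differed less, with 107 CPM in the Gfra1/Ret group, 70.3 CPM in cells low in both and 77.1 CPM in the Kit/Stra8 group, a ratio of 0.720 for the last against the first (0.664 to 0.781). Foxo1, the effector that insulin and PI3K signalling keeps out of the nucleus, was at 177, 191 and 116 CPM, and Pou5f1 at 47.6, 39.3 and 19.1 CPM. Both lay below the Gfra1/Ret level in the Kit/Stra8 group, at 0.657 times (0.616 to 0.700) and 0.401 times (0.345 to 0.465).

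Neurog3, a basic helix-loop-helix factor, was sparse, with 147 UMIs in 87 of the 716 control germ cells. It stood at 2.10 CPM in the Gfra1/Ret group, 10.6 CPM in cells low in both and 3.67 CPM in the Kit/Stra8 group. The middle group was 5.05 times the Gfra1/Ret group (3.26 to 7.97) and the Kit/Stra8 group 1.75 times (1.08 to 2.85). Sox3, an X-linked SOX factor, was at 20.8 CPM in the Gfra1/Ret group and higher in both others, at 67.1 CPM in cells low in both (3.23 times, 2.78 to 3.75) and 60.8 CPM in the Kit/Stra8 group (2.93 times, 2.56 to 3.35). The latter pair did not differ beyond counting error, at 0.906 (0.805 to 1.02). A median Gfra1/Ret cell had 0 Sox3 UMIs and a median Kit/Stra8 cell 2, with highest cells of 16 and 24 UMIs.

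Egr4 was highest in cells low in both, at 253 CPM against 151 CPM in the Gfra1/Ret group and 77.0 CPM in the Kit/Stra8 group, ratios to the Gfra1/Ret level of 1.68 (1.58 to 1.79) and 0.511 (0.473 to 0.551). Markers of some other cells were higher in this group. The Sertoli list was at 1408 CPM in control cells low in both against 440.0 CPM in the Gfra1/Ret group. The stromal list was at 402 against 170 CPM, the myoid list at 286 against 75.3 CPM and the macrophage list at 60.4 against 7.33 CPM. Scrublet marked 13.5% against 5.16% of cells. Haemoglobin genes were lower, at 139 against 311 CPM, as were the endothelial list (45.5 against 75.1 CPM) and the Leydig, neutrophil and pericyte lists, of a few CPM. In the median cell the Sertoli list took 1.31 against 1.08 UMIs per 10000 and the myoid list 0.146 against 0.176. All members of the Sertoli, stromal, myoid and macrophage lists had UMIs in cells low in both. The part of other cells' transcripts in the levels of that group was not tested. Egr4 itself was at 1.24 CPM in control Sertoli-like, 6.45 CPM in stromal-like, 4.47 CPM in myoid-like and 7.64 CPM in Leydig-like cells, and had 0 UMIs in 22 macrophage-like cells. Nanos3 was at 59.2 CPM in the Gfra1/Ret group, at 66.3 CPM in cells low in both and at 13.8 CPM in the Kit/Stra8 group, the lowest ratio of the set at 0.233 (0.197 to 0.275). Lin28a was at 48.5, 64.8 and 44.3 CPM, higher in the middle by 1.34 times (1.18 to 1.51), with ends that did not differ beyond counting error (0.913, 0.816 to 1.02). Taf4b ran the other way from most of the set, at 106 CPM in the Gfra1/Ret group, 89.7 CPM in the middle and 130.1 CPM in the Kit/Stra8 group, 1.22 times the first (1.14 to 1.31).

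For calls across all genes, a 2-fold difference was required on the scale of log2(CPM + 10) among genes with at least 10 UMIs over both compared sums together. Between the control Kit/Stra8 and Gfra1/Ret groups, Sox3 alone of the 10 was called higher, where 0.688% of 18014 genes were, and Zbtb16 and Nanos3 were called lower, where 1.3% were (1.99% in either direction). The median difference of the 10 was -0.50 against 0.02 over all tested genes. For cells low in both against the Gfra1/Ret group, Sox3 was again called higher, where 0.687% of 17323 genes were, and 0 of the 10 were called lower, where 0.514% were (1.2% in either direction). Neurog3 differed by 0.77 on this scale, short of a call, since the added 10 CPM shrinks differences between levels of a few CPM.

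**Figure D1:**
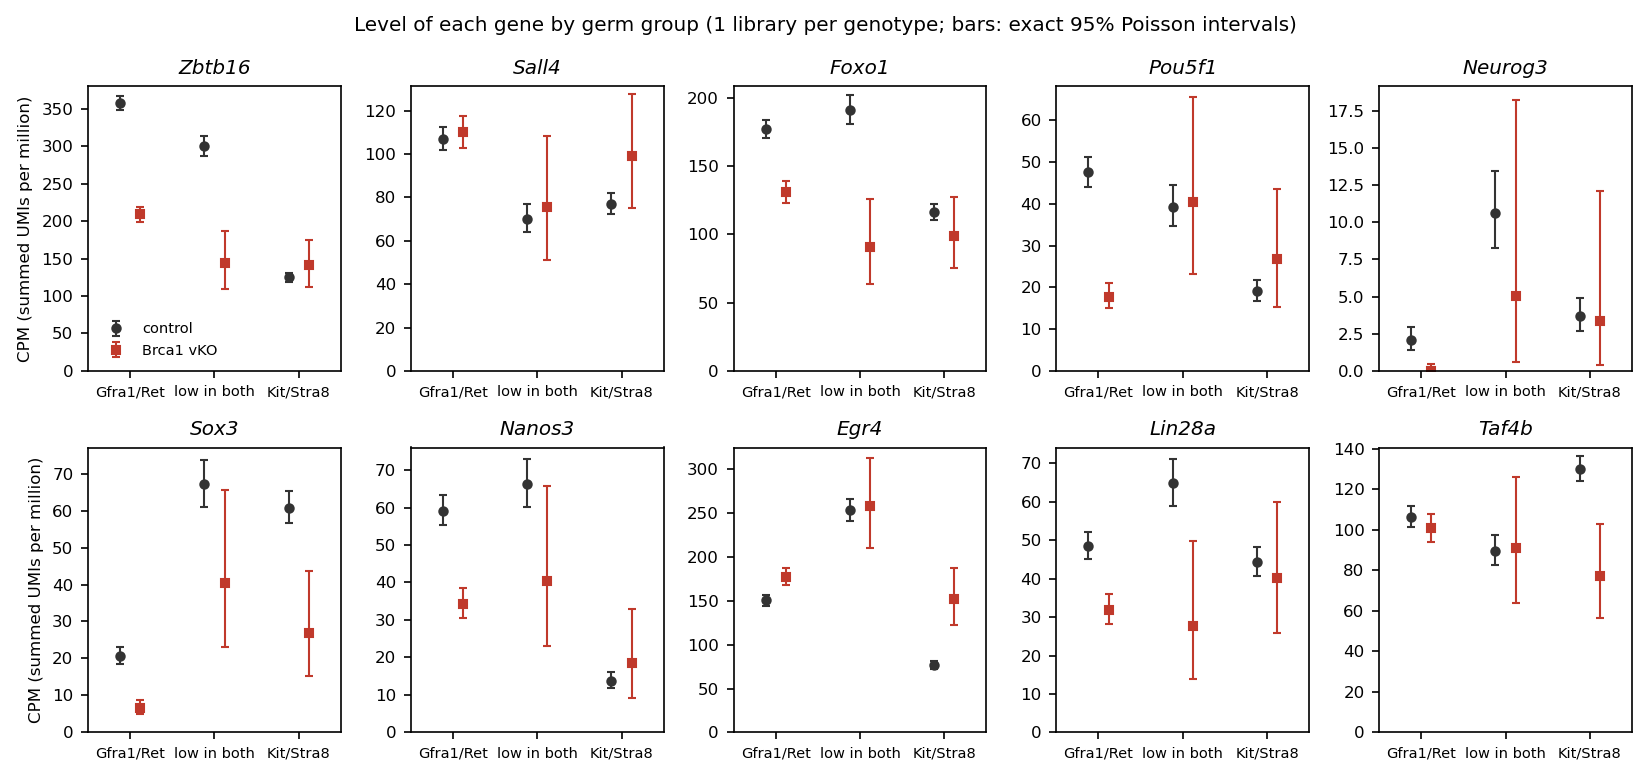
Summed level of each of the 10 genes (y axis, CPM, from 0) in the 3 germ groups (x axis) of the control (black circles) and Brca1 vKO (red squares) libraries, with exact 95% Poisson intervals. Control Zbtb16 and Pou5f1 in the Gfra1/Ret group, at 358 and 47.6 CPM, lie above the Brca1 vKO values of 209 and 17.8 CPM, while Sall4 at 107 and 110.2 CPM overlaps.

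A finer view came from ordering the control germ cells by Gfra1 plus Ret minus Kit plus Stra8 UMIs per 10000 and cutting the order into 10 bins of 71 or 72 cells, from the most Gfra1 and Ret (bin 1) to the most Kit and Stra8 (bin 10). Zbtb16 held between 296.8 and 403 CPM over bins 1 to 5 and was at 104 CPM in bin 10. Sox3 was at 7.18 CPM in bin 1, 67.1 CPM in bin 6 and 76.9 CPM in bin 10. Most of this difference lay between bins 2 and 5, at 9.37, 20.4, 36.8 and 60.9 CPM, so Sox3 was already present where Gfra1 and Ret still exceeded Kit and Stra8.

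Neurog3 formed a narrow peak in the same stretch, at 2.49 CPM in bin 4, 9.85 in bin 5, 11.9 in bin 6, 7.16 in bin 7 and 2.06 in bin 8, with 34 UMIs in the highest bin. Egr4 likewise was at 86.8 CPM in bin 1, 297 CPM in bin 6 and 74.5 CPM in bin 8. Lin28a was highest in bin 5 (71.4 CPM, against 30.3 in bin 1), as was Foxo1 (226.7 CPM, against 174 in bin 1). Nanos3 was highest in bins 4 to 6, at 76.3, 73.2 and 73.0 CPM, and was at 14.4 CPM in bin 8 and 10.4 CPM in bin 10. Pou5f1 was highest in bin 5, at 54.8 CPM, and stood at 11.2 CPM in bin 8. Bins 6 to 8, where the index passes from 0 to a median of -2.18, thus held the steepest differences in Egr4, Nanos3 and Pou5f1. Zbtb16 was at 383 CPM in bin 5, 295.8 in bin 6, 211 in bin 7 and 127 in bin 8.

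Across these bins the genes whose log2(CPM + 10) profiles were most like each member were sought among 10856 genes with at least 200 control UMIs. As a description over 10 points of 1 library, ordered by shared marker counts, the nearest to Sox3 was Sohlh1 (Pearson r = 0.99), which encodes a helix-loop-helix factor of differentiating spermatogonia. The nearest to Zbtb16 was Bnc2 (0.99), a zinc finger gene, to Nanos3 Sys1 (0.99), to Pou5f1 Aff3 (0.99), to Egr4 Stox2 (0.99), to Taf4b Zfp770 (0.98), to Foxo1 Afap1l2 (0.97), to Sall4 Slc35f2 (0.97) and to Lin28a Gm2694 (0.95). Among the 3 nearest to Egr4 was Nab2 (0.98), which encodes a corepressor of EGR proteins. Neurog3 had too few UMIs for this comparison. Among the members, Zbtb16 and Nanos3 (0.94), Pou5f1 and Nanos3 (0.93), Foxo1 and Nanos3 (0.93) and Foxo1 and Pou5f1 (0.93) ran most closely together, and Taf4b and Egr4 (-0.90) most nearly in opposite directions.

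Over all germ cells, 8 of the 10 genes were lower in the Brca1 vKO than in the control library and 2, Sall4 and Egr4, were higher, with all 10 intervals of the ratio on 1 side of 1. At this depth counting intervals are narrow, and the same held for 24.5% of 19173 tested genes on the lower side and 18.1% on the higher side (42.6% in either direction). The largest differences were in the progenitor markers. Neurog3 gave 147 UMIs across control and 4 across Brca1 vKO germ cells, 4.34 against 0.442 CPM, a ratio of 0.102 (0.0274 to 0.266). Sox3 gave 44.6 and 9.39 CPM, a ratio of 0.211 (0.167 to 0.262), and had UMIs in 433 of 716 (60.5%) and 49 of 228 (21.5%) cells. In the control library a germ cell held 0 to 24 Sox3 UMIs with a median of 1, and in the Brca1 vKO library 0 to 9 with a median of 0.

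Of the undifferentiated-state genes, Pou5f1 was at 35.5 and 19.8 CPM (ratio 0.557, 0.474 to 0.653), Zbtb16 at 260.4 and 203 CPM (0.778, 0.739 to 0.818) and Foxo1 at 157 and 128 CPM (0.812, 0.761 to 0.866). Sall4 was at 88.9 and 108 CPM (1.21, 1.13 to 1.31). Among the rest, Lin28a was at 50.2 and 32.0 CPM (0.638, 0.561 to 0.723), Nanos3 at 43.8 and 33.7 CPM (0.769, 0.677 to 0.870), Taf4b at 112 and 98.98 CPM (0.884, 0.821 to 0.951) and Egr4 at 143 and 180.4 CPM (1.26, 1.19 to 1.33). Sox3 was the sole member called at 2-fold in this comparison, on the lower side, where 0.396% of 19173 genes were called, and 0 members were called higher, where 0.615% were (1.01% in either direction). The median of the 10 was -0.32 on the log2(CPM + 10) scale, against -0.02 over all tested genes.

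The libraries differ in the shares of the germ groups, so a sum over all germ cells mixes that with levels within a group. Within the Gfra1/Ret group, of 310 control and 196 Brca1 vKO cells, Zbtb16 was at 358 and 209 CPM, a ratio of 0.585 (0.553 to 0.618), with medians of 15 and 7 UMIs per cell and highest cells of 73 and 37. Nanos3 was at 59.2 and 34.3 CPM (0.580, 0.505 to 0.665), Pou5f1 at 47.6 and 17.8 CPM (0.374, 0.310 to 0.449) and Foxo1 at 177 and 131 CPM (0.741, 0.689 to 0.796). These 4 were thus further below control within the Gfra1/Ret group than over all germ cells. Neurog3 had 31 UMIs in 20 control cells of the group and 0 UMIs in the Brca1 vKO cells. The exact interval of this ratio reaches 0.233, and taking 3 Brca1 vKO UMIs as the floor would make it 5.60-fold lower. Sox3 was at 20.8 and 6.64 CPM (0.320, 0.234 to 0.429), found in 125 of 310 and 37 of 196 cells.

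Lin28a was at 48.5 and 32.0 CPM in that group (0.658, 0.569 to 0.761). Sall4, at 107 and 110.2 CPM, did not differ beyond counting error (1.03, 0.946 to 1.12), nor did Taf4b, at 106 and 101 CPM (0.946, 0.867 to 1.03). Egr4 was higher in the Brca1 vKO cells, at 151 and 178 CPM (1.18, 1.10 to 1.26). Intervals lay below 1 for 7 members and above 1 for Egr4, as they did for 21% and 18.9% of 17379 tested genes (39.9% in either direction). Pou5f1 was called lower at 2-fold, where 0.282% were, and 0 members were called higher, where 0.455% were (0.737% in either direction). The median of the 10 was -0.44 against -0.01 over all tested genes. The Sox3 ratio moved to 0.510 when a cell needed 2 marker UMIs per 10000 to enter a group. Leaving out cells that reached the cut for both marker pairs put Zbtb16 at 0.548, Nanos3 at 0.498 and Pou5f1 at 0.334.

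Averaging the group levels with the control library's group weights in both libraries gave ratios of 0.464 for Sox3, 0.512 for Neurog3, 0.657 for Zbtb16, 0.708 for Foxo1, 0.677 for Nanos3, 0.682 for Lin28a, 0.721 for Pou5f1, 0.805 for Taf4b, 1.12 for Sall4 and 1.28 for Egr4. Here 15 Brca1 vKO cells stand for each of the smaller groups, which for Neurog3 held 2 UMIs apiece. In the Kit/Stra8 group, with 596507 Brca1 vKO UMIs in all, Sox3 was at 60.8 and 26.8 CPM (0.441, 0.251 to 0.721). Leaving out cells that reached the cut for both marker pairs put this ratio at 0.667. Taf4b was at 130.1 and 77.1 CPM (0.593, 0.432 to 0.794) and Egr4 at 77.0 and 153 CPM (1.98, 1.58 to 2.46), while the intervals of the other 7 held 1. The median cell held 2 Egr4 UMIs in each library, and the highest Brca1 vKO cell held 24 of 91. Gfra1 was at 19.0 CPM in the control and 147.5 CPM in the Brca1 vKO Kit/Stra8 group, so the groups were not matched on it. In cells low in both, Zbtb16 (300.3 and 144 CPM; 0.480, 0.362 to 0.624), Foxo1 (191 and 91.0 CPM; 0.476, 0.332 to 0.663), Lin28a (64.8 and 27.8 CPM; 0.429, 0.213 to 0.775) and Sox3 (67.1 and 40.4 CPM; 0.603, 0.341 to 0.990) were lower in the Brca1 vKO library. These low-in-both ratios moved with the cut on marker UMIs, to 0.279 for Zbtb16 and 0.274 for Foxo1 at 0.5 per 10000 and to 0.224 for Sox3 at 2 per 10000. Single cells weighed heavily in them. The highest Brca1 vKO cell held 25 of 57 UMIs for Zbtb16, 12 of 36 for Foxo1, 3 of 11 for Lin28a and 9 of 16 for Sox3.

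**Figure D2:**
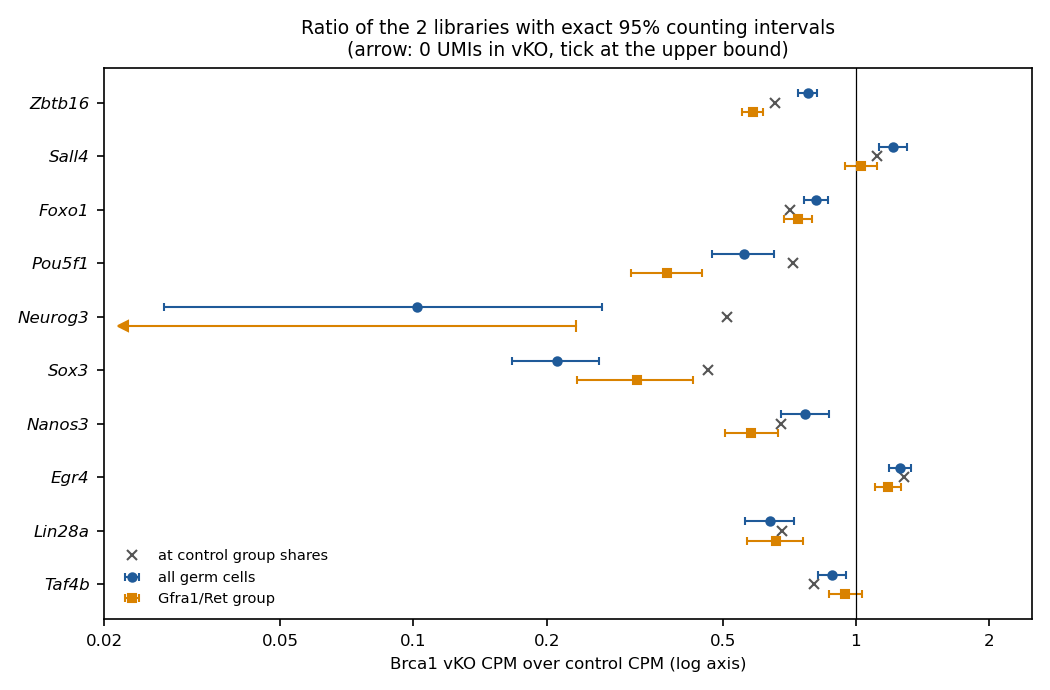
Brca1 vKO level over control level (x axis, log scale) for each gene (y axis) over all germ cells (blue circles) and in the Gfra1/Ret group (orange squares) with exact 95% counting intervals, and after weighting groups as in the control library (grey crosses). Sox3 and Neurog3 lie farthest to the left over all germ cells, at 0.211 and 0.102, and Sall4 and Egr4 to the right of 1, at 1.21 and 1.26.

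Because a Gfra1/Ret cell can lie anywhere above the cut, Brca1 vKO cells were also set beside control cells of the same marker index, using the bounds of the control bins. Bins 1 to 5 took 34, 67, 50, 36 and 17 Brca1 vKO cells, and bins 6 to 9 took 9, 5, 6 and 4, with 0 in bin 10. Zbtb16 was below control in each of bins 1 to 5, with ratios of 0.611, 0.672, 0.700, 0.445 and 0.437. So was Pou5f1, with 0.518, 0.358, 0.418, 0.325 and 0.377, and all 10 of these intervals lay below 1.

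Over bins 1 to 5, as with Zbtb16, the ratios of Sox3, Nanos3, Foxo1 and Lin28a were lowest in bins 4 and 5. Unlike those of Zbtb16, they were nearest to 1 in bins 1 and 2 of this range. For Sox3 they were 1.13 (0.499 to 2.42), 0.619, 0.467, 0.0932 (0.0298 to 0.223) and 0.271 (0.138 to 0.484). In bin 4, 72 control cells held 133 Sox3 UMIs and 36 Brca1 vKO cells held 5. Nanos3 ran from 0.762 (0.532 to 1.07) in bin 1 to 0.315 (0.215 to 0.448) in bin 4. Foxo1 was at 0.836 (0.706 to 0.985) and 0.968 in bins 1 and 2, and at 0.478 and 0.455 in bins 4 and 5. Lin28a went from 0.782 (0.507 to 1.18) and 1.16 (0.899 to 1.499) to 0.356 and 0.308. Within the Brca1 vKO library, Nanos3 was at 33.3 CPM (24.3 to 44.6) in bin 1 and 30.2 CPM (19.0 to 45.8) in bin 5, and Lin28a at 23.7 CPM (16.2 to 33.4) and 22.0 CPM (12.6 to 35.7), differences within counting error. Foxo1 was at 145 CPM in bin 1 and 103 CPM in bin 5. Sox3 was at 8.14 CPM in bin 1 and 16.5 CPM in bin 5 of the Brca1 vKO library.

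Within bins 1 to 5, Egr4 crossed over. It was higher in Brca1 vKO cells of bin 1 (139 against 86.8 CPM, a ratio of 1.60, 1.32 to 1.94) and bin 2 (199.6 against 120.2 CPM, 1.66, 1.46 to 1.89). It was level in bin 4 (0.987, 0.862 to 1.13) and lower in bin 5 (131 against 239 CPM, 0.546, 0.437 to 0.677). Over bins 1 to 5 the ratios of Sall4 ran from 0.881 to 1.20 and those of Taf4b from 0.854 to 1.04, with 1 inside each interval except that of Sall4 in bin 1. In the bins with under 10 Brca1 vKO cells, Sall4 reached 1.60 (1.01 to 2.44) in bin 7 and Taf4b 0.485 (0.269 to 0.809) in bin 8. Egr4 ran there from 0.787 (0.424 to 1.35) in bin 8 to 3.68 (2.53 to 5.23) in bin 9, above control again. The bin 9 value rested on 37 UMIs in 4 Brca1 vKO cells. Kit, which forms part of the index, was higher in Brca1 vKO cells of bins 1 to 5 by 2.19 to 18.6 times. These ratios came from 25 to 103 Brca1 vKO and 6 to 42 control UMIs a bin. The widest interval among them (7.46 to 55.5) was on the largest ratio, in bin 5. Gfra1 was higher by 2.07 times in bin 5 (1.56 to 2.73). Stra8 was lower in bin 3 (0.413, 0.292 to 0.574) and bin 4 (0.329, 0.201 to 0.515). In bins 6 to 9 Gfra1 was higher by 4.12 to 9.47 times. Kit ran there from 24.7 times control in bin 6 (8.57 to 80.1) to 0.505 times in bin 9 (0.267 to 0.870). Cells matched on the index were thus not matched on each marker.

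**Figure D3:**
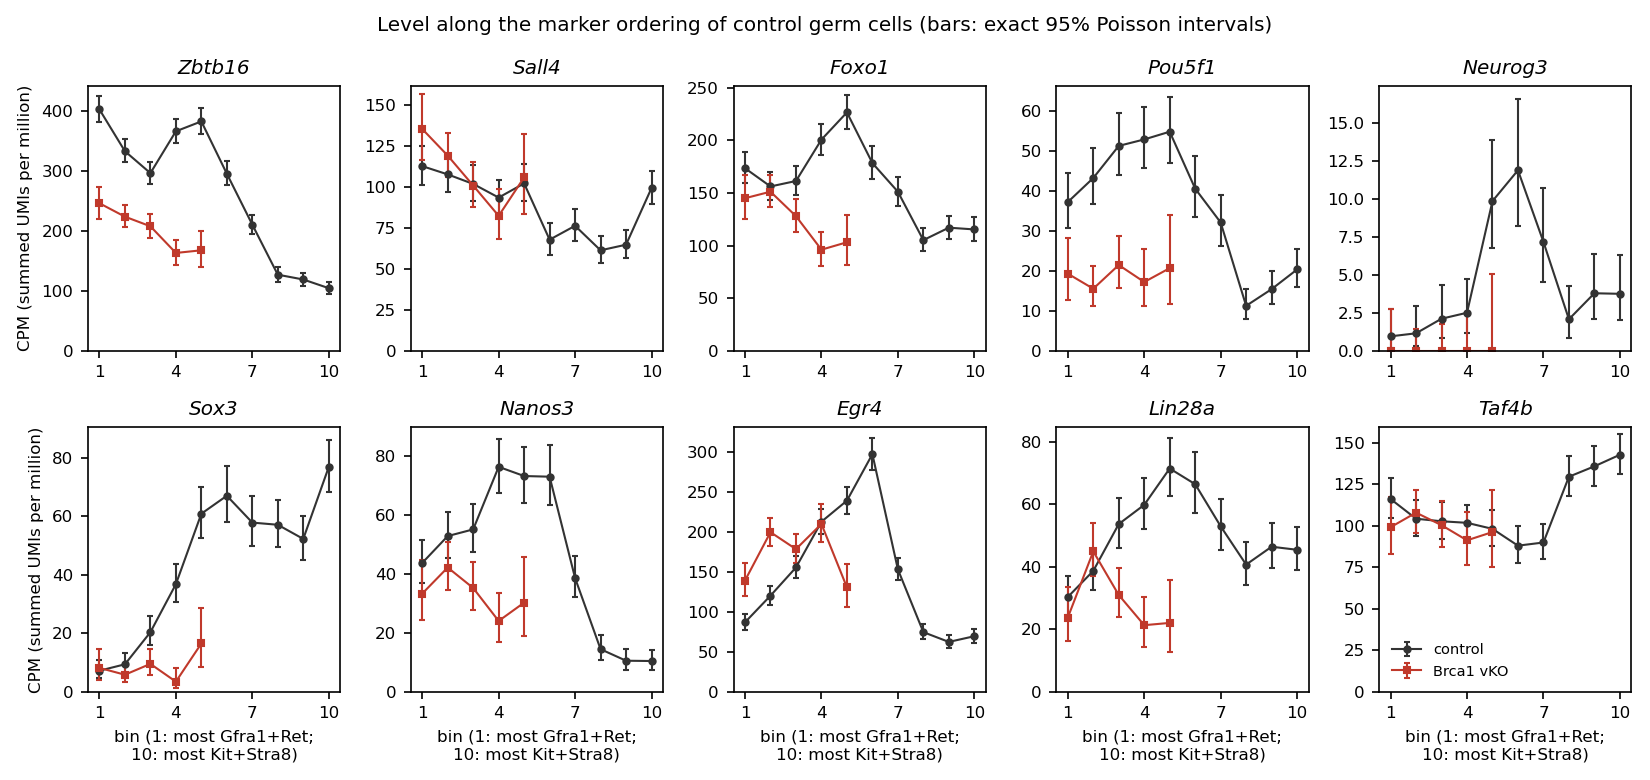
Summed level of each gene (y axis, CPM, from 0) along the marker ordering (x axis, bin 1 with most Gfra1 and Ret to bin 10 with most Kit and Stra8), for 10 bins of control cells (black) and for the 5 bins with at least 10 Brca1 vKO cells (red), with exact 95% Poisson intervals. Control Sox3 goes from 7.18 to 60.9 CPM over bins 1 to 5 while Brca1 vKO Sox3 is at 16.5 CPM in bin 5, and Zbtb16 lies below control in all 5 bins.

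Detection in single cells depends on depth, so each cell was thinned at random to 10000 UMIs, with 0 germ cells left out. A Neurog3 UMI then remained in 28 of 716 control germ cells (3.91%, exact interval 2.61 to 5.60) and in 0 of 228 Brca1 vKO germ cells, for which the exact interval reaches 1.605% and 3 counts of the total would be 1.32%. Both limit cells with a UMI, not cells expressing the gene. Before thinning the shares were 12.2% and 0.877%. For Sox3 the thinned shares were 29.2% (25.9 to 32.7) and 9.65% (6.15 to 14.2), against 60.5% and 21.5% before. Sertoli-like cells, which should lack both genes, had thinned shares of 0.0560% for Neurog3 and 0.616% for Sox3 in the control, and 0 of 3592 cells and 0.0278% in the Brca1 vKO library, with medians of 19333 and 16877 UMIs per cell.

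Zbtb16 was found in nearly equal thinned shares of all germ cells, 76.0% (72.7 to 79.1) and 76.3% (70.3 to 81.7), yet within the Gfra1/Ret group in 92.3% (88.7 to 94.98) of control and 78.1% (71.6 to 83.6) of Brca1 vKO cells. Pou5f1 was found in 27.5% and 17.5% of all germ cells, and in 38.4% (32.9 to 44.1) and 15.8% (11.01 to 21.7) of the Gfra1/Ret group. Sall4 went the other way over all germ cells, with 50.7% (47.0 to 54.4) and 66.7% (60.1 to 72.8), and Egr4 was found in 59.9% and 68.4%. Foxo1 (65.8% and 61.8%), Taf4b (58.1% and 60.5%) and Nanos3 (28.8% and 29.8%) had overlapping intervals, and Lin28a was found in 35.3% and 22.4% of cells.

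In thinned control cells of the Gfra1/Ret group, the 46 cells with a Sox3 UMI included 38 (82.6%) with an Egr4 UMI and 21 (45.7%) with a Nanos3 UMI, against 64.0% and 35.2% of the group's other cells. Among the 28 control germ cells with a Neurog3 UMI, 23 had an Egr4 UMI (82.1%), 22 a Zbtb16 UMI and 12 a Sox3 UMI (42.9%), where the rest of the germ cells had 59.0% for Egr4 and 28.6% for Sox3. In the Brca1 vKO Gfra1/Ret group 15 of 196 cells had a Sox3 UMI, 10 of them with Egr4 (66.7%, against 68.5% of the others). A thinned control germ cell showed 0 to 9 of the 10 genes with a median of 4, and 48.3% of cells showed at least 5. In the Gfra1/Ret group 61.0% of control and 38.8% of Brca1 vKO cells showed at least 5.

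Related genes gave a mixed picture, on lists chosen with earlier results of these data known. Of 18 paralogues 15 could be tested over all germ cells, where Egr2 was called higher in the Brca1 vKO library (12.1 and 39.3 CPM), 0 were called lower and the median was 0.20. The shares over all tested genes, 0.615% higher and 0.396% lower, apply to this and the next lists. Paralogues lay on either side of control, as the members did. Egr3 was at 5.61 and 19.99 CPM and Egr1 at 189 and 295 CPM, on the same side as Egr4. Foxo3 was at 121 and 169 CPM (1.40, 1.32 to 1.49), on the other side from Foxo1. Lin28b was at 135 and 76.9 CPM (0.571, 0.526 to 0.618), beside 0.638 for Lin28a. Pou3f1, an OCT factor of stem cells, was at 74.96 and 147 CPM (1.96, 1.83 to 2.09), on the other side from Pou5f1.

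Of 17 stem cell genes, 8 were called higher in Brca1 vKO germ cells, among them Lhx1 (15.8 and 133 CPM), Pax7 (3.07 and 42.3 CPM) and Id4 (43.2 and 114 CPM), and 1, Uchl1, was called lower (832 and 354 CPM). Within the Gfra1/Ret group 4 of the 17 were called higher, Bcl6b, Lhx1, Pax7 and Shisa6, with a median over the list of 0.51, where 0.455% of all tested genes were. Of 14 progenitor-to-differentiating genes, 5 were called lower over all germ cells, including Sohlh1 (184 and 59.0 CPM) and Upp1 (26.6 and 4.64 CPM), and Ccnd2 was called higher (191 and 577 CPM). In the Gfra1/Ret group Upp1 (22.7 and 3.38 CPM) and Sohlh1 (115 and 49.5 CPM) were called lower, where 0.282% of all tested genes were. Dmrtb1, Lmo1 and Crabp1, called lower over all germ cells, were not called in this group.

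Protein partners of the 10 and the machinery around them were a list of 28 genes. Of these, which include the NuRD subunits that SALL4 and PLZF recruit, TFIID subunits beside TAF4B, deadenylase and let-7 uridylation genes that act with NANOS3 and LIN28A, and the PI3K pathway upstream of FOXO1, 0 were called in either direction over all germ cells or within the Gfra1/Ret group. Their medians were -0.03 and -0.01, against -0.02 and -0.01 over all tested genes, of which 1.01% and 0.737% were called in either direction, so 0 of 28 is near that share. Chd4, the NuRD helicase gene, was at 442 and 645 CPM (1.46, 1.42 to 1.504). In the control Kit/Stra8 group against the Gfra1/Ret group, Akt1 alone of these was called, on the higher side.

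Sertoli cells are the somatic nurse cells of the tubule, and Sertoli-like clusters, named from 12 markers, held 1785 control and 3592 Brca1 vKO cells of at least 10000 UMIs. Of the 10 genes, some had a level there far above that of germ cell transcripts and others were nearer to it. Dazl and Ddx4, which Sertoli cells should lack, were at 0.639% and 0.565% of their germ cell level in control Sertoli-like cells, and at 0.226% and 0.216% in the Brca1 vKO library, which had fewer germ cells. Foxo1 was at 36.5 CPM (34.9 to 38.2) and 40.8 CPM (39.5 to 42.1) in Sertoli-like cells, 23.2% and 31.9% of its germ level. Taf4b was at 35.5 CPM (33.8 to 37.1) and 38.7 CPM (37.4 to 39.96), 31.7% and 39.1%. Between libraries these Sertoli-like levels differed by 1.12 times (1.06 to 1.18) and 1.09 times (1.03 to 1.16).

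Nanos3 was at 4.09 and 4.04 CPM (9.33% and 11.98% of its germ level) and Pou5f1 at 1.46 and 1.13 CPM (4.11% and 5.69%), so both stood above the Dazl and Ddx4 shares in each library. In control Sertoli-like cells without a Ddx4 or Dazl UMI, the shares were 9.44% for Nanos3, 3.59% for Pou5f1, 22.8% for Foxo1 and 30.7% for Taf4b. Nanos3 was at a similar level in stromal-like cells (4.13 and 4.40 CPM). Zbtb16, Sall4, Egr4, Lin28a, Sox3 and Neurog3 were at 0.01995 to 1.42 CPM in control Sertoli-like cells, 0.404% to 1.34% of their germ levels. The highest of these shares, that of Sox3 (0.903 to 1.93), lay above the 0.639% of Dazl and 0.565% of Ddx4. In the Brca1 vKO library the Sox3 share was 0.226%. Sox3 was at 0.599 and 0.0212 CPM (0.0355 times, 0.00411 to 0.140) and Lin28a at 0.459 and 0.0743 CPM (0.162 times, 0.0587 to 0.390), so these small Sertoli-like levels were lower in the library with fewer germ cells, as Dazl was (7.06 and 2.26 CPM). Zbtb16 held 0.544% and 0.545% of its germ level and Egr4 0.863% and 0.459%, and in the Brca1 vKO library both shares were above that of Dazl.

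In other somatic classes Foxo1 was at 156 and 157 CPM in endothelial-like cells (14 and 28 cells), as high as in germ cells. Taf4b was at 52.1 and 87.6 CPM in myoid-like and 55.7 and 76.4 CPM in stromal-like cells. Zbtb16 was at 17.0 and 28.1 CPM in myoid-like cells and at 8.37 and 27.1 CPM in stromal-like cells, against germ levels of 260.4 and 203 CPM. Sox3 had 0 UMIs in 1718 stromal-like and 665 myoid-like Brca1 vKO cells, and Neurog3 had 0 in both. In the control library, 836 stromal-like cells held 9 Sox3 and 2 Neurog3 UMIs, and 482 myoid-like cells held 5 and 0.

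**Figure D4:**
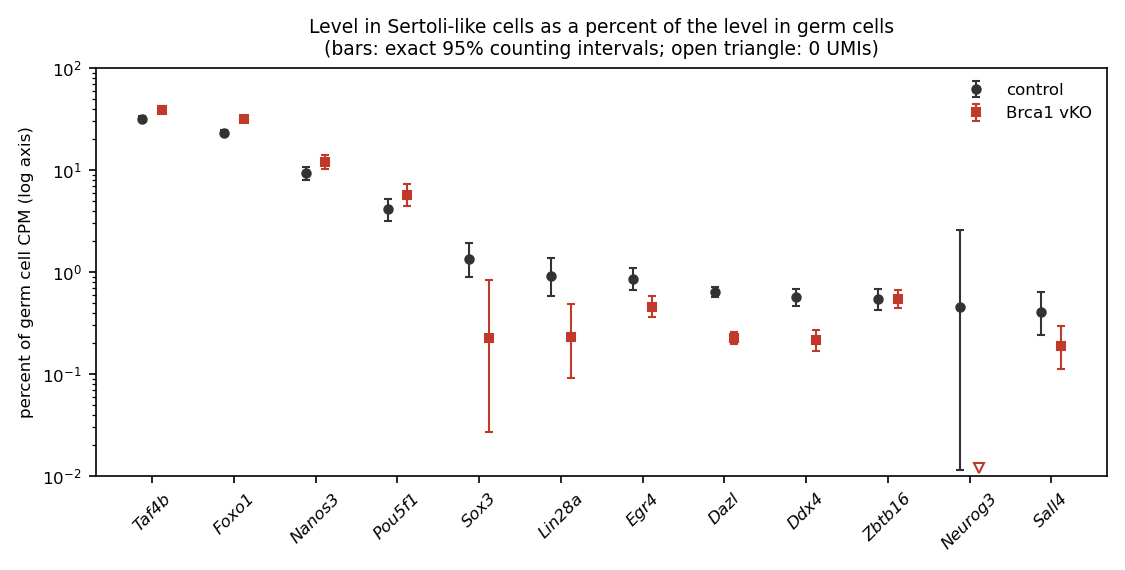
Level in Sertoli-like cells as a percent of the level in germ cells of the same library (y axis, log scale) for the 10 genes and for Dazl and Ddx4 (x axis), in control (black circles) and Brca1 vKO (red squares), with exact 95% counting intervals. Taf4b, Foxo1, Nanos3 and Pou5f1 lie above Dazl and Ddx4 in both libraries, from 4.11% to 39.1%, and an open triangle marks Neurog3 at 0 UMIs in the Brca1 vKO library.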

How the data were processed

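Testes of 1 control and 1 Brca1 vKO mouse were profiled at PD7. Per the labels and the study's methods, the authors aligned reads to mm10 and counted UMIs with Cell Ranger 6.0.2, and the deposited matrices hold UMI counts per gene and cell, not normalized. Totals were 120568700 and 165062097 UMIs over 5812 and 9456 barcodes. Barcodes below 750 detected genes or above 10% mitochondrial UMIs were dropped, leaving 5077 and 8712 cells. Counts were summed per group and given as CPM with exact Poisson, exact conditional (ratios) or Clopper-Pearson (shares) intervals, and scripts were tested on simulated data. Clusters came from scanpy 1.11.5 (2000 variable genes, 20 components, resolution 0.5), with Scrublet for doublets, which were kept. TMM factors used edgeR 4.0.16. No p-value was computed. The genes and lists were chosen with earlier results of these data known. Genes named for likeness were the 3 most correlated over control bins. Sequences came from RefSeq (GRCm38.p6) and gene spans from GENCODE M21. Of the promoter motifs searched, TGACG was added after the sequences were read. Values of some listed genes are not reported here.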

Additional observations from a re-analysis of the deposited data

Results flagged for a closer look

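In 2 genes the control and Brca1 vKO libraries moved in opposite directions between the cells low in both marker pairs and the Gfra1/Ret group, with intervals that excluded 1 on either side. Pou5f1 in cells low in both was 0.826 times its Gfra1/Ret level in the control (0.713 to 0.954) and 2.27 times in the Brca1 vKO library (1.26 to 3.82), where it rested on 16 UMIs in 15 cells and ran from 1.29 with a cut of 2 marker UMIs per 10000 to 3.25 with a cut of 0.5. Foxo1 was 1.08 times in the control (1.01 to 1.15) and 0.693 times in the Brca1 vKO library (0.483 to 0.966), with 36 UMIs in 15 cells and a value of 0.391 with a cut of 0.5. The difference between the libraries was not tested, since each genotype was 1 library. The control Foxo1 ratio fell below 1 when groups were taken from thinned cells (0.976) or cells were weighted equally (0.920).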

How the results depend on the processing

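All 90 alternative values of the genotype ratios over all germ cells stayed within their counting intervals, and 122 of 130 in the Gfra1/Ret group did, with 1 on the other side of 1. Cells low in both depended more on the settings, since 9 of 130 genotype ratios left their interval and 24 changed side of 1, and 19 of 110 control ratios to the Gfra1/Ret group left theirs and 3 reversed. With a cut of 2 marker UMIs per 10000, the Gfra1/Ret ratios were 0.647 for Zbtb16, 0.804 for Foxo1, 0.510 for Sox3, 0.685 for Nanos3 and 1.36 for Egr4. That cut put 36.0% of control germ cells in the Gfra1/Ret group, 28.8% in the Kit/Stra8 group and 35.1% low in both, and 76.8% and 18.4% of Brca1 vKO cells in the first and last. A cut of 0.5 put 49.4% and 12.4% of control cells and 3.07% of Brca1 vKO cells (low in both) there, and gave Neurog3 a control Kit/Stra8 over Gfra1/Ret ratio of 0.986. With cells of at least 5000 UMIs the control shares were 38.7% Gfra1/Ret and 25.03% low in both. Groups from thinned cells put 16.3% of control cells low in both, with ratios to the Gfra1/Ret group of 0.976 for control Foxo1 (0.920 with each cell weighted equally) and 0.736 for Brca1 vKO Egr4. The germ-like cluster alone, an alternative chosen after seeing the data, gave 48.4% and 16.3% of control cells and a control Zbtb16 ratio of 1.02. The 119 genes called higher in control cells low in both became 49 with a germ threshold of 5 per 10000, 56 without Scrublet doublets and 35 in the germ-like cluster alone. A pseudocount of 1 CPM gave 442 higher and 600 lower genes between genotypes, 421 and 454 within the Gfra1/Ret group, 810 and 919 for Kit/Stra8 over Gfra1/Ret cells and 735 and 498 for cells low in both. The cause of these differences was not tested. Leaving out cells over both cuts was also chosen after seeing the data. No paired analysis was possible because each genotype was 1 library, and leaving out a library would leave no comparison.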

Other observations

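Germ cell barcodes too shallow for the comparisons, under 10000 UMIs, numbered 372 (control) and 52 (Brca1 vKO), with medians of 3198.5 and 3314.5 UMIs. Sox3 was at 57.5 CPM (45.9 to 71.2) and 14.6 CPM (3.01 to 42.6) in them, and Egr4 at 173 and 136 CPM. Zbtb16 was at 68.5 CPM (55.7 to 83.3) and 126 CPM (82.6 to 185), with the Brca1 vKO value the higher one here, unlike in deeper cells. Their markers differed too, with Stra8 at 230.1 and 48.6 CPM and Gfra1 at 13.0 and 63.2 CPM. Neurog3 had 2 UMIs among control barcodes and 0 among Brca1 vKO ones.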
